A study of Mus musculus with 11 samples.

Results

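Myh4, Smarcd3, Cttnbp2, Kalrn, 2900026A02Rik and Fosb are 6 of the 754 genes counted in skin RNA from 11 mice after bone marrow transplant. The 6 genes were chosen by their normalized counts in these same mice and how these moved between the 3 groups, and to be compared from mouse to mouse, so the differences between groups and the correlations among the 6 describe that choice. The differences are given with their error and without a test, and members called are counted only beside the share of all genes called. All 6 passed the filter on low values (a normalized count of at least 20 in at least 3 mice), as did 696 genes in all.

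The study asked whether mast cells of the recipient change the skin in a mouse model of chronic graft-vs.-host disease (GVHD). Every recipient was irradiated with 850 cGy, received bone marrow cells and splenocytes, and gave skin from the neck after week 7. The syngeneic (n = 3) and allo-WT (n = 3) recipients were C57BL/6j mice, and the allo-MCd recipients (n = 5) were B6.Cg-KitW-sh/HNihrJaeBsmGlliJ mice, which lack mast cells. According to the methods all recipients were female and 8 to 10 weeks old, and donors were C57BL/6J mice for syngeneic and LP/J mice for allogeneic transplants. The sample labels differ from this and name LP/J cells for all 11 mice. The W-sh allele of Kit is carried by every cell of the recipient and is not limited to mast cells. The labels do not say whether the mice came from 1 transplant, and the p-values below measure the spread between these 11 mice.

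Myh4 encodes the fast type IIb myosin heavy chain, the motor protein of the fastest skeletal muscle fibres. In the mouse, a thin sheet of skeletal muscle, the panniculus carnosus, lies under the fat of the skin, so that a piece of whole skin can carry muscle RNA. Smarcd3, also named BAF60C, is a subunit of the SWI/SNF complex, which moves nucleosomes, and is known for its part in heart and skeletal muscle development. Cttnbp2 binds cortactin, an actin regulator, and Kalrn encodes kalirin, a guanine nucleotide exchange factor, and both are known mainly from the synapses of neurons. Fosb is a subunit of the AP-1 transcription factor and an immediate early gene, and 2900026A02Rik, the mouse counterpart of KIAA1671, is poorly characterised. Of the 6, Myh4 alone encodes a protein of the muscle filament, and Fosb is neither a muscle nor a structural gene.

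Depth ranged from 831632 to 1460260 recovered counts a mouse. Background, set at 2 SD above the average of the 8 negative controls, ranged from 14.3 to 37.5 normalized counts. Allo-WT mouse 1 was the shallowest, and the strongest of its positive controls reached 3975 counts, where the other mice had 17615 to 33547. The median normalized count over the genes of a mouse was lower in the allo-MCd group, with a group median of 269 against 438 in syngeneic and 508 in allo-WT mice. Differences are therefore also given after each mouse was scaled to its own median, which is called median scaling. The mast cell list summed to 185 to 704 normalized counts in allo-MCd mice, against 4004 to 9755 in syngeneic and 2472 to 14952 in allo-WT mice.

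Myh4 was the member with the widest gap between the groups. Its normalized count was 24768, 55424 and 55499 in the 3 syngeneic mice, and 3131, 2504 and 3864 in the 3 allo-WT mice. In the 5 allo-MCd mice it was 20251, 21484, 65583, 9063 and 57012. All allo-WT mice lay below every mouse of the other groups, whereas the allo-MCd mice spread 7.24-fold from lowest to highest and overlapped with the syngeneic mice. On the log2 scale the difference was -3.76 ± 0.63 (SE) for allo-WT minus syngeneic, 3.12 ± 0.57 for allo-MCd minus allo-WT and -0.64 ± 0.57 for allo-MCd minus syngeneic. The geometric mean in allo-WT skin was thus 13.6-fold lower than in syngeneic skin and 8.71-fold lower than in allo-MCd skin. With median scaling the 3 differences were -4.02, 3.97 and -0.05, so that the gap between the allogeneic groups widened and the one between allo-MCd and syngeneic mice almost closed. With single mice left out the last lay between -1.03 and -0.25 on the deposited scale. Myh4 belongs to a family of closely related myosin genes, and the probe sequences were not used here.

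Smarcd3, the chromatin remodelling subunit, followed the same order of groups. Its normalized count was 525, 698 and 881 in syngeneic mice and 73.5, 81.2 and 109.9 in allo-WT mice. In allo-MCd mice it was 235, 256, 593, 153 and 530. The allo-WT mice were again lowest without overlap, and the allo-MCd mice with the highest counts, mice 3 and 5, were also those with the highest Myh4. The log2 difference was -2.97 ± 0.46 for allo-WT minus syngeneic, 1.83 ± 0.41 for allo-MCd minus allo-WT and -1.14 ± 0.41 for allo-MCd minus syngeneic, and with median scaling these were -3.21, 2.66 and -0.55.

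Since Myh4 and Smarcd3 varied together from mouse to mouse, as described below, the 250 bases before their start sites are shown from RefSeq (GRCm38.p6), 5′ to 3′ on the gene's strand. Myh4 spans chr11:67237812-67260447 and its window is chr11:67237562-67237811 on the plus strand, and Smarcd3 spans chr5:24592622-24624456 and its window is chr5:24602003-24602252 on the minus strand, before a start that lies inside the span of the gene. Capitals mark matches on either strand to the E-box CANNTG, the MEF2 motif, the SRF CArG box and TATAAA, and TGANTCA, the AP-1 motif, was searched as well.
Myh4: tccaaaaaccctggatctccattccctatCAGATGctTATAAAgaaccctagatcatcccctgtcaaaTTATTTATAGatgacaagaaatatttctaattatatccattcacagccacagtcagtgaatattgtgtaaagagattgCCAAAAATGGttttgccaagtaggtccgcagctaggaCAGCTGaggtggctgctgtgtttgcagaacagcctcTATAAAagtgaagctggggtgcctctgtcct
Smarcd3: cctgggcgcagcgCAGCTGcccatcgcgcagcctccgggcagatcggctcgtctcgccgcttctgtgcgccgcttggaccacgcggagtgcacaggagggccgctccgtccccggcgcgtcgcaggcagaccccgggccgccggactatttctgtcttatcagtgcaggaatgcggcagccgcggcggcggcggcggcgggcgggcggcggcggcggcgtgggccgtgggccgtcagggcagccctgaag
The Myh4 window held 2 E-boxes, 1 MEF2 motif at -182 to -173, 1 CArG box at -104 to -95 and 3 matches to TATAAA, of which 1 lay at -31 to -26 and 1 lay inside the MEF2 motif. E-boxes are bound by MyoD and related factors, and MEF2 and SRF act on many muscle genes. The Smarcd3 window held 1 E-box and none of the other motifs, and its GC content was 76% against 42% for Myh4. An E-box was present in 66.2% of all 32851 windows of this length, a TATAAA match in 12.4%, the MEF2 motif in 2.92% and the CArG box in 1.47%. The windows of the other members held 1 or 2 E-boxes each or, for Cttnbp2, no match, and none held the AP-1 motif, which 6.75% of all windows held. These matches describe letters and were not tested as binding sites.

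**Figure D1:**
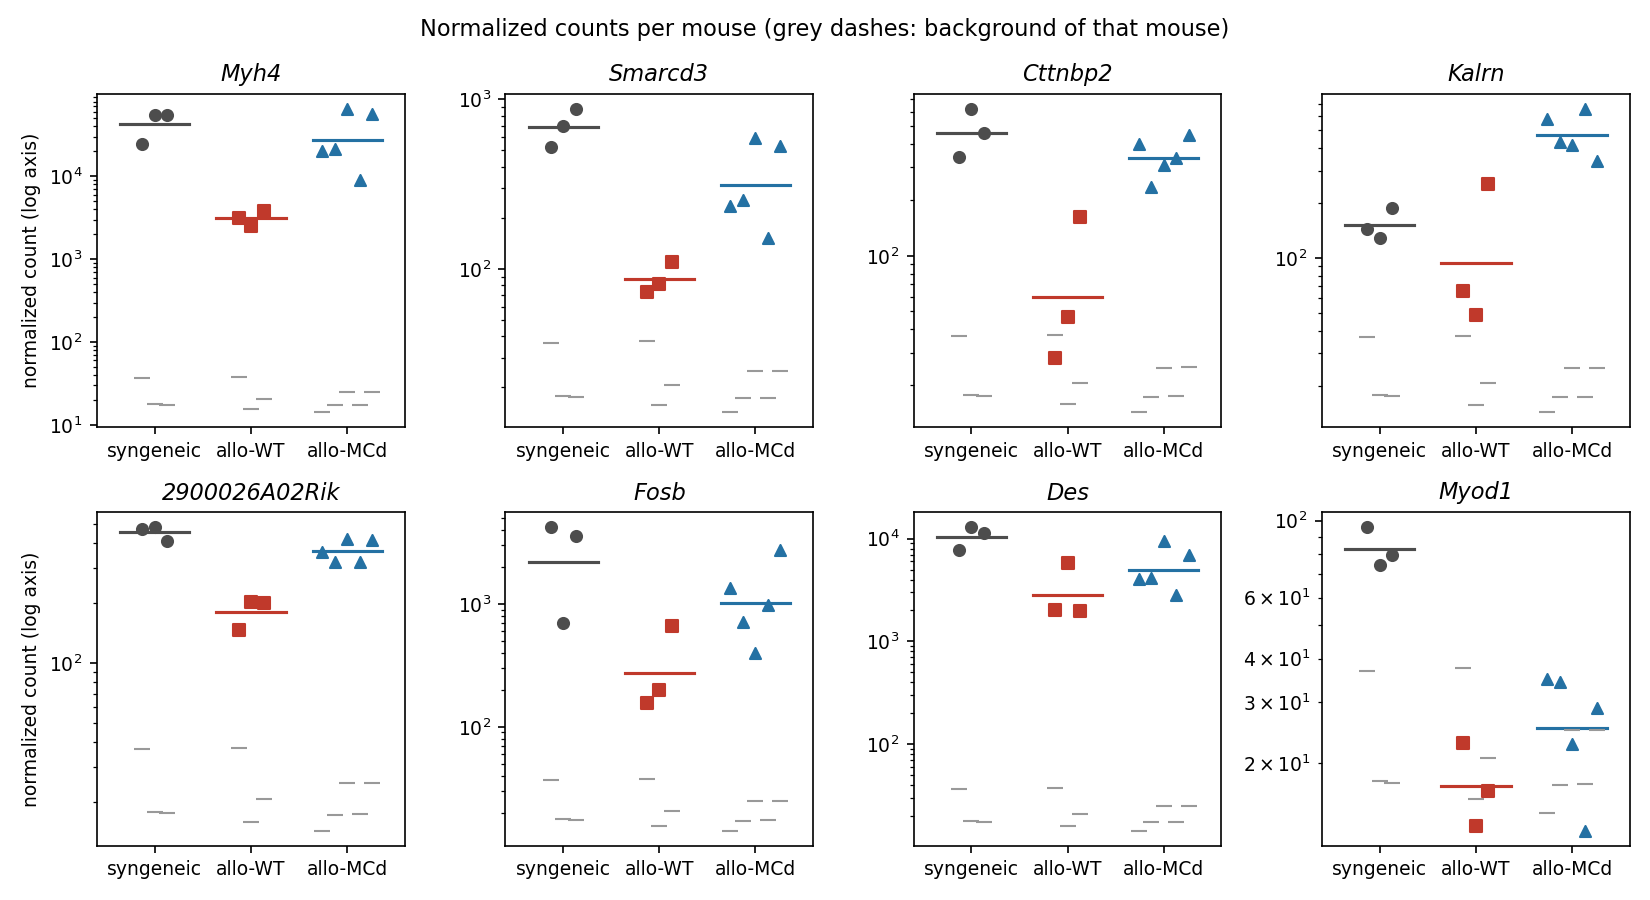
Normalized count on a log axis of the 6 members and of Des and Myod1 in each mouse, as 3 syngeneic (circles), 3 allo-WT (squares) and 5 allo-MCd mice (triangles), with the geometric mean of the group as a line and each mouse's background as a grey dash. The allo-WT mice are lowest for Myh4, Smarcd3, Cttnbp2 and 2900026A02Rik without overlap, and allo-WT mouse 3 lies apart from mice 1 and 2 for Cttnbp2, Kalrn and Fosb.

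Cttnbp2, the cortactin binding gene, had normalized counts of 343, 623 and 460 in syngeneic mice and 403, 235, 310, 337 and 448 in allo-MCd mice. In allo-WT mice it had 27.9, 46.6 and 162, and the first of these lay below that mouse's background of 37.5. The allo-WT mice lay below all others, and the syngeneic and allo-MCd mice overlapped. The log2 difference was -2.93 ± 0.52 for allo-WT minus syngeneic, 2.48 ± 0.46 for allo-MCd minus allo-WT and -0.45 ± 0.46 for allo-MCd minus syngeneic, whose direction turned with median scaling (0.14), when the second was 3.31. The first and second were -2.39 and 1.94 without allo-WT mouse 1, and -3.64 and 3.19 without allo-WT mouse 3.

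Kalrn, the exchange factor, did not follow this order and was highest in allo-MCd skin. Its normalized count was 144, 129 and 189 in syngeneic mice and 580, 434, 418, 658 and 338 in allo-MCd mice, with no overlap between these groups. In allo-WT mice it was 65.9, 49.0 and 253, so mice 1 and 2 lay below every syngeneic mouse and mouse 3 above every one. The log2 difference was -0.69 ± 0.50 for allo-WT minus syngeneic, 2.32 ± 0.45 for allo-MCd minus allo-WT and 1.63 ± 0.45 for allo-MCd minus syngeneic, and with median scaling these were -0.94, 3.16 and 2.22. The first and second were -1.40 and 3.03 without allo-WT mouse 3, and -0.23 and 1.86 without allo-WT mouse 2.

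The counts of 2900026A02Rik were 473, 481 and 409 in syngeneic, 147, 202 and 199 in allo-WT, and 363, 320, 417, 320 and 413 in allo-MCd mice. This gene had the smallest spread within groups of the 6, with an SD on the log2 scale of 0.13 to 0.26. The allo-WT mice were lowest without overlap, by -1.32 ± 0.22 against syngeneic mice, and the difference of allo-MCd minus allo-WT was 1.01 ± 0.19, or 1.85 with median scaling. The difference of allo-MCd minus syngeneic was -0.31 ± 0.19, or 0.28 with median scaling, so that its direction turned with the scaling.

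Fosb, the AP-1 subunit, was the member that varied most among the syngeneic mice. It had 4229, 702 and 3577 normalized counts in syngeneic mice, 157, 198 and 667 in allo-WT mice, and 1364, 710, 400, 988 and 2766 in allo-MCd mice. Every allo-WT mouse lay below every syngeneic mouse, but allo-WT mouse 3 lay above allo-MCd mouse 3. The log2 difference was -2.99 ± 0.79 for allo-WT minus syngeneic, 1.87 ± 0.71 for allo-MCd minus allo-WT and -1.12 ± 0.71 for allo-MCd minus syngeneic, and with median scaling the second was 2.72 and the last -0.53. With single mice left out the 3 differences lay between -3.82 and -2.52, 1.47 and 2.51, and -1.94 and -0.65, and the lowest value of the last was that without syngeneic mouse 2.

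Against the panel, a gene was called where its adjusted p in limma was 0.05 or less. For allo-WT minus syngeneic, 5 of the 6 members (all but Kalrn) were called lower, where 14.9% of the 696 genes were called lower (27.3% with median scaling), and the groups did not overlap in that direction for the same 5, against 20.3% of all genes. For allo-MCd minus allo-WT all 6 members were called higher, against 10.9% of all genes (35.6% with median scaling), and the groups did not overlap for 5 of them, against 10.1%. For allo-MCd minus syngeneic Smarcd3 was called lower, against 36.9% of all genes, and Kalrn was called higher and did not overlap, against 4.6% (13.9% with median scaling) and 6.9%. The methods' test on unlogged values compared 3 groups with Tukey's procedure, to which Benjamini-Hochberg adjustment was added here. By it 2900026A02Rik, Cttnbp2 and Smarcd3 were called lower in the first comparison, beside 8.19% of all genes. In the second 2900026A02Rik, Cttnbp2 and Kalrn were called higher, beside 6.32%. In the third 0 members were called lower, beside 9.34%, and 0 higher, beside 2.01%. Myh4 and Fosb were called by this test in no comparison, with or without the adjustment. The lower call of Smarcd3 in the third was absent with median scaling, beside 13.5% of all genes. It was also lost without any single syngeneic mouse and without allo-MCd mouse 1, 2 or 4. The higher call of Fosb in the second was lost without allo-WT mouse 1 or 2 or allo-MCd mouse 1, 4 or 5. The rule used these contrasts, so nothing is read from the counts. The 3 comparisons share mice, since each group serves in 2 of them.

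The median log2 difference of the 6 members was -2.95, 2.10 and -0.55 in the 3 comparisons, beside 0.21, -0.72 and -0.59 over all 696 genes, and with median scaling -3.19, 2.94 and 0.05 beside -0.04, 0.12 and -0.01. Over all genes 197 were called higher and 104 lower for allo-WT minus syngeneic (169 and 190 with median scaling), 76 and 348 for allo-MCd minus allo-WT (248 and 211), and 32 and 257 for allo-MCd minus syngeneic (97 and 94). With single mice left out, the genes called lower in the first lay between 64 and 130. Those called higher in the second lay between 48 and 89, and those called lower in the third between 166 and 311.

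**Figure D2:**
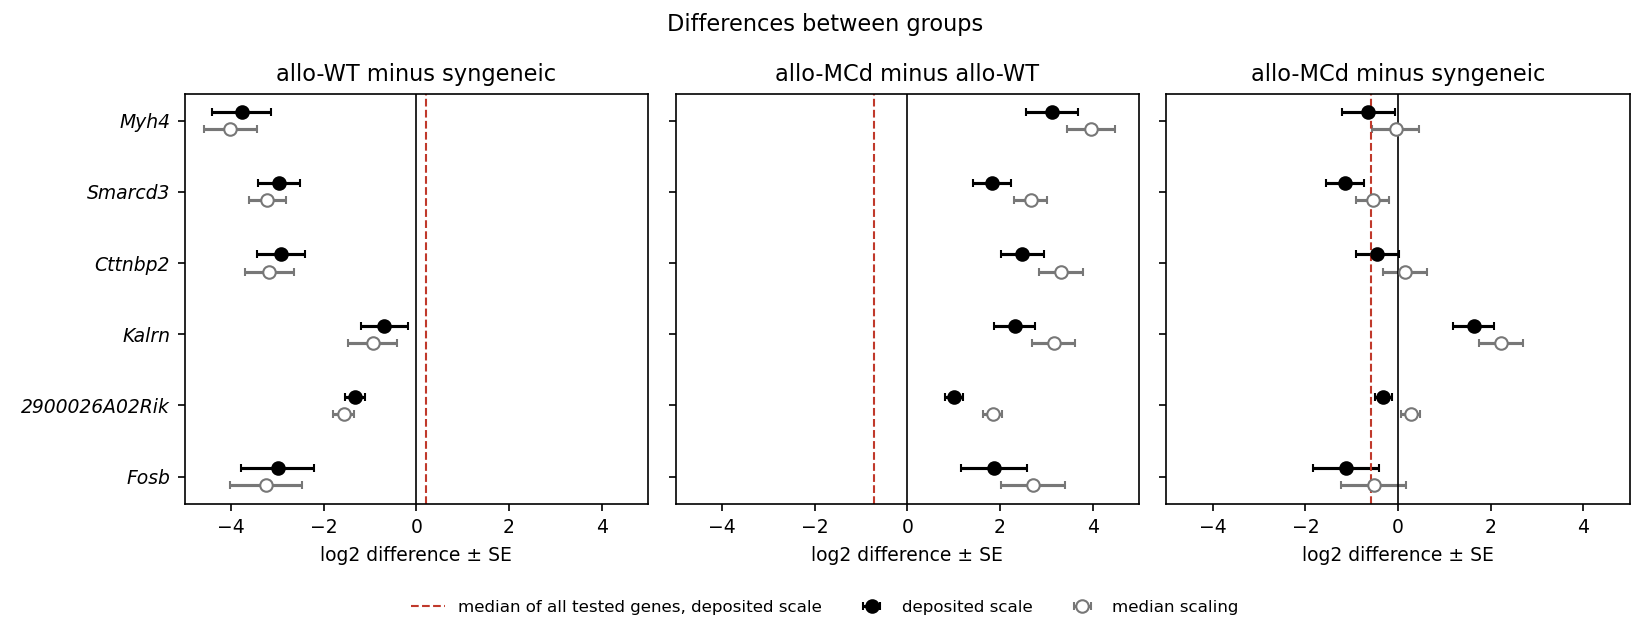
Difference between groups on the log2(normalized count + 1) scale with its SE for the 6 members in the 3 comparisons, on the deposited scale (black) and with median scaling (open), with the median of all tested genes on the deposited scale as a dashed line. In allo-WT minus syngeneic 5 members lie between -3.76 and -1.32 and Kalrn at -0.69, and in allo-MCd minus syngeneic Kalrn lies at 1.63 and the others between -1.14 and -0.31.

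How the members moved together from mouse to mouse was described on the deviation of each mouse from its group's mean (log2 scale), less the median deviation of that mouse over all tested genes, which takes off the group differences. The members were named with these values of all 11 mice known, so the correlations among them are given without a p. Of 15 pairs, Myh4 and Smarcd3 had the highest correlation, with Pearson's r = 0.96 and Spearman's rho = 0.91 over the 11 mice. Without the 2 mice farthest from the median of Myh4, r was 0.89, and with each mouse left out in turn it lay between 0.93 and 0.98. Among the 695 other genes tested, Smarcd3 had the highest r with Myh4, and Myh4 the highest with Smarcd3, and the median r with Myh4 over these genes was -0.01.

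In the allo-MCd group the deviations ran from -1.48 in mouse 4 to 1.20 in mouse 3 for Myh4 and from -0.92 to 0.85 in the same mice for Smarcd3. The other 14 pairs had r between -0.24 and 0.71. The highest of these, Cttnbp2 with Kalrn, had r = 0.71, rho = 0.53 and r = 0.31 without the 2 mice farthest from the median, and allo-WT mouse 3 had deviations of 1.39 for Cttnbp2 and 1.38 for Kalrn. Kalrn and Myh4 had r = -0.24 and Fosb and Myh4 r = -0.23, and r was above 0 in 10 of the 15 pairs.

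**Figure D3:**
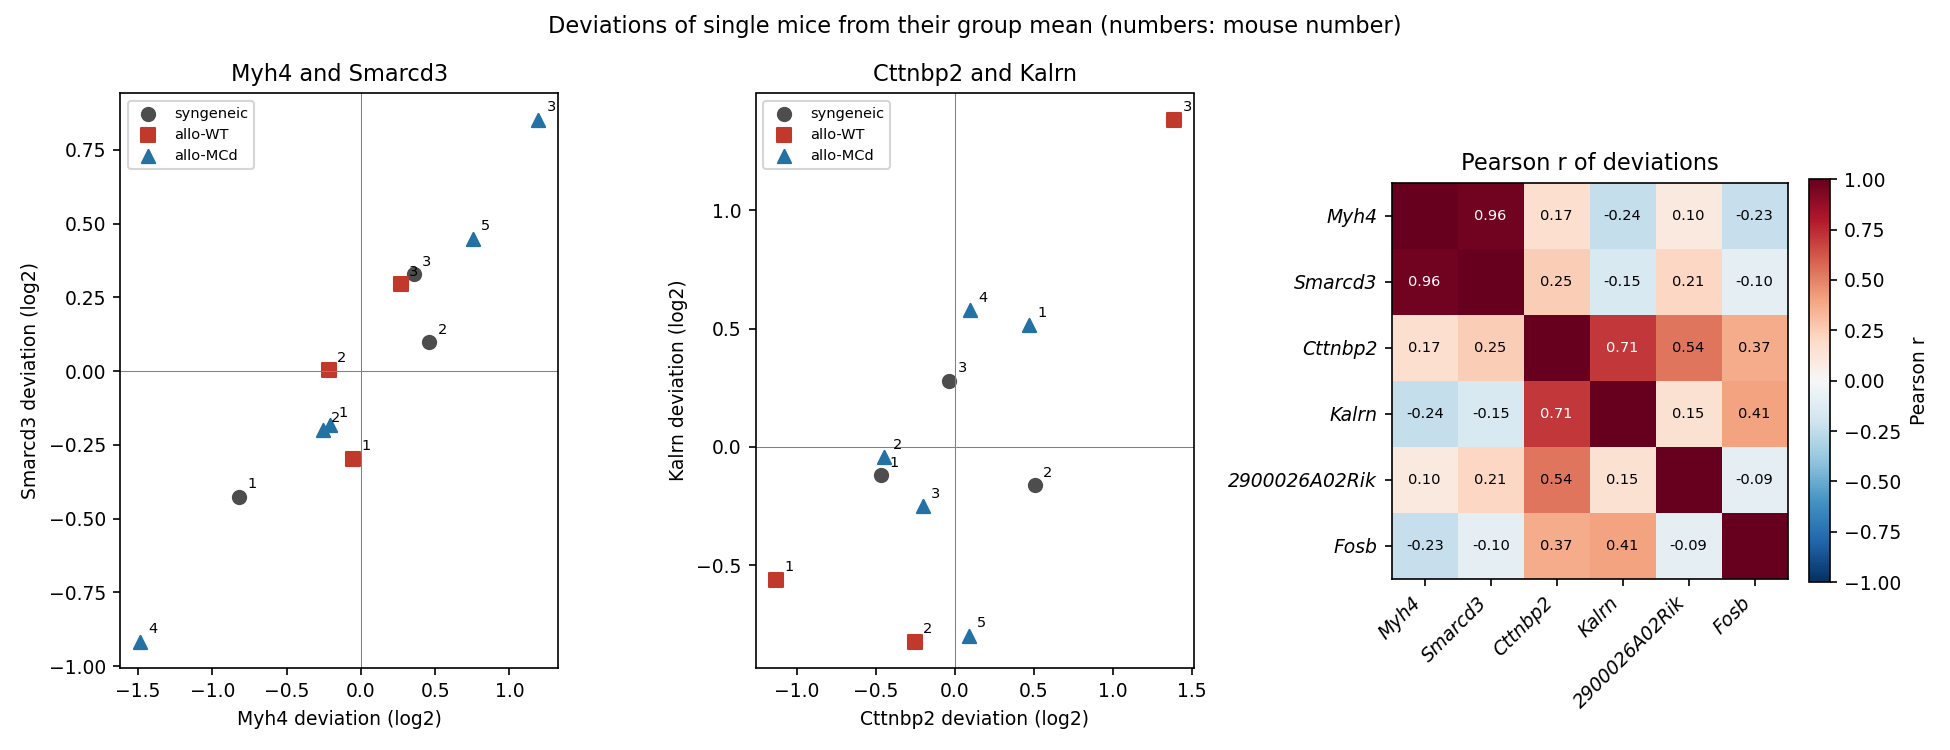
Deviation of each mouse from its group mean on the log2 scale, less the median deviation of that mouse, for Myh4 and Smarcd3 (left, r = 0.96) and for Cttnbp2 and Kalrn (middle, r = 0.71), with group as colour and shape and mouse number as label, and Pearson's r for all 15 pairs (right). Myh4 and Smarcd3 lie along a line in which allo-MCd mice 3 and 4 are the ends, and allo-WT mouse 3 is the far point for Cttnbp2 and Kalrn.

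Other muscle genes were few on this panel, which held 2 of 35 listed skeletal muscle and sarcomere genes, Des and Myod1. Des encodes desmin, the intermediate filament of muscle cells, which smooth muscle also makes, and Myod1 encodes the transcription factor MyoD. The normalized count of Des was 7814, 12962 and 11317 in syngeneic, 2023, 5752 and 1970 in allo-WT, and 4045, 4137, 9515, 2823 and 6962 in allo-MCd mice. The allo-WT mice lay below the syngeneic mice, as for 20.3% of all genes, and overlapped with the allo-MCd mice. Des fell by 1.88 ± 0.48 on the log2 scale for allo-WT minus syngeneic (limma adjusted p = 0.0087), and the difference of allo-MCd minus allo-WT was 0.82 ± 0.43 (limma adjusted p = 0.12). With median scaling the latter was 1.66 (limma adjusted p = 0.00437). Of all genes 14.9% were called lower for allo-WT minus syngeneic, and 35.6% higher for allo-MCd minus allo-WT with median scaling.

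Myod1 lay close to background in the allogeneic groups. Its normalized count was 95.8, 74.7 and 79.4 in syngeneic mice and 22.8, 13.1 and 16.6 in allo-WT mice, of which 0 of 3 were above that mouse's background, and between 12.8 and 34.9 in allo-MCd mice, of which 3 of 5 were. Every allogeneic mouse lay below every syngeneic mouse (limma adjusted p = 0.00114 for allo-WT and 0.00337 for allo-MCd). The size of the 2 differences of Myod1 from syngeneic mice, -2.21 ± 0.39 and -1.68 ± 0.35, depends on values at background. With a pseudocount of 20 they were -1.46 and -1.17. The 2 allogeneic groups overlapped, with a difference that background limits as well (0.53 ± 0.35, limma adjusted p = 0.202, or 1.34 and 0.00537 with median scaling).

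From mouse to mouse within groups, Des had r = 0.57 with Myh4 (n = 11, exact permutation p = 0.0401) and 0.62 with Smarcd3 (exact permutation p = 0.0373), with rho of 0.55 and 0.64 (exact permutation p = 0.0685 and 0.047). Both r had an adjusted p of 0.24 over the 12 relations of the 6 members with Des and Myod1, none of which passed. Without the 2 mice farthest from the median these r were 0.20 and 0.30. Members and lists were chosen with earlier results of these mice known, so these p are no independent test. In RNA of whole skin, fewer cells of a type and less RNA per cell cannot be told apart.

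The AP-1 and immediate early list, to which Fosb belongs by function, had 14 of 24 genes on the panel besides Fosb. For allo-WT minus syngeneic 3 fell (Nr4a1, Atf3 and Egr2) and 3 rose (Fosl1, Batf and Ier3), where 14.9% of all genes were called lower and 28.3% higher, and the median of the list was -0.56, beside 0.21 over all genes. With median scaling 8 fell and 3 rose, beside 27.3% and 24.3% of all genes, and the median was -0.81. Nr4a1, an orphan nuclear receptor, fell by 1.99 ± 0.46 (limma adjusted p = 0.005), and Atf3, a stress transcription factor, by 1.37 ± 0.44 (0.0247). Fosl1, the Fos relative FRA-1, rose by 1.92 ± 0.52 (limma adjusted p = 0.0118), or by 1.37 without allo-WT mouse 1 and 2.66 without allo-WT mouse 3. Batf, a partner of Jun in lymphocytes and myeloid cells, rose by 1.60 ± 0.32 (limma adjusted p = 0.00213). The call of Atf3 was lost without syngeneic mouse 1 or 3 or allo-WT mouse 1, and that of Egr2 without most single mice.

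For allo-MCd minus allo-WT, 3 genes of this list rose and 4 fell, where 10.9% of all genes were called higher and 50% lower. With median scaling 8 rose and 2 fell, beside 35.6% and 30.3% of all genes. Egr3, a zinc finger transcription factor, rose by 1.02 ± 0.28 (limma adjusted p = 0.00686), and Jun, the main partner of the Fos proteins, by 0.78 ± 0.25 (0.019), a call lost without allo-WT mouse 1. Batf fell by 2.94 ± 0.28 (limma adjusted p = 4.85e-06), and Fosl1 fell by 2.02 ± 0.47 (0.00269), a call lost with quantile normalization (-0.94, limma adjusted p = 0.113). Without allo-WT mouse 1 the difference of Fosl1 was -1.47, and without allo-WT mouse 3 it was -2.75. For allo-MCd minus syngeneic 4 fell and 1 rose, beside 36.9% and 4.6% of all genes, and with median scaling 2 fell and 3 rose, beside 13.5% and 13.9%. Of those that fell, Batf3 and Batf fell most on the deposited scale, by 1.45 ± 0.30 and 1.34 ± 0.28 (limma adjusted p = 0.00337 and 0.00351).

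Of 44 listed genes of the actin cytoskeleton and its signalling, the functions of Kalrn and Cttnbp2, 5 were on the panel. Vav1, an exchange factor of blood cells, rose by 0.90 ± 0.28 for allo-WT minus syngeneic (limma adjusted p = 0.0201) and fell by 2.11 ± 0.25 for allo-MCd minus allo-WT (1.97e-05), the opposite of the direction of Kalrn and Cttnbp2 in the latter. Was, the actin regulator mutated in Wiskott-Aldrich syndrome, fell by 2.11 ± 0.30 in the latter comparison (limma adjusted p = 8.5e-05), and Arhgef6 by 0.76 ± 0.27 (0.0275, and 0.08 in the other direction with median scaling). For allo-MCd minus syngeneic Was fell by 1.42, Arhgef6 fell by 1.28, Vav1 fell by 1.21 and Vav2 fell by 0.62 (limma adjusted p between 0.00317 and 0.0332). Of the 5 genes, 3 were thus called lower for allo-MCd minus allo-WT and 4 for allo-MCd minus syngeneic, beside 50% and 36.9% of all genes. Vav2 missed the threshold with median scaling (-0.03) and Vav1 with quantile normalization (-0.54, limma adjusted p = 0.0652). The fifth gene, Ctnnb1, which encodes the adhesion and Wnt protein beta-catenin, differed by 0.24 ± 0.19 and 0.38 ± 0.19 in these comparisons (limma adjusted p = 0.278 and 0.117), and with median scaling it was called higher in both (1.09 and 0.97, limma adjusted p = 0.000147 and 0.00215). The call of Vav1 for allo-WT minus syngeneic was lost without syngeneic mouse 3 or allo-WT mouse 1.

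Of 37 listed chromatin genes, 2 were on the panel besides Smarcd3. Hdac5, a histone deacetylase known to restrain MEF2 in muscle, fell by 1.46 ± 0.23 for allo-WT minus syngeneic (limma adjusted p = 0.000488) and rose by 0.99 ± 0.20 for allo-MCd minus allo-WT (0.00114). Hdac6, a cytoplasmic deacetylase, differed by -0.08 ± 0.30 and 0.19 ± 0.27 in these comparisons and passed the threshold in neither (limma adjusted p = 0.841 and 0.56, with 1.03 and 0.00498 for the second after median scaling).

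**Figure D4:**
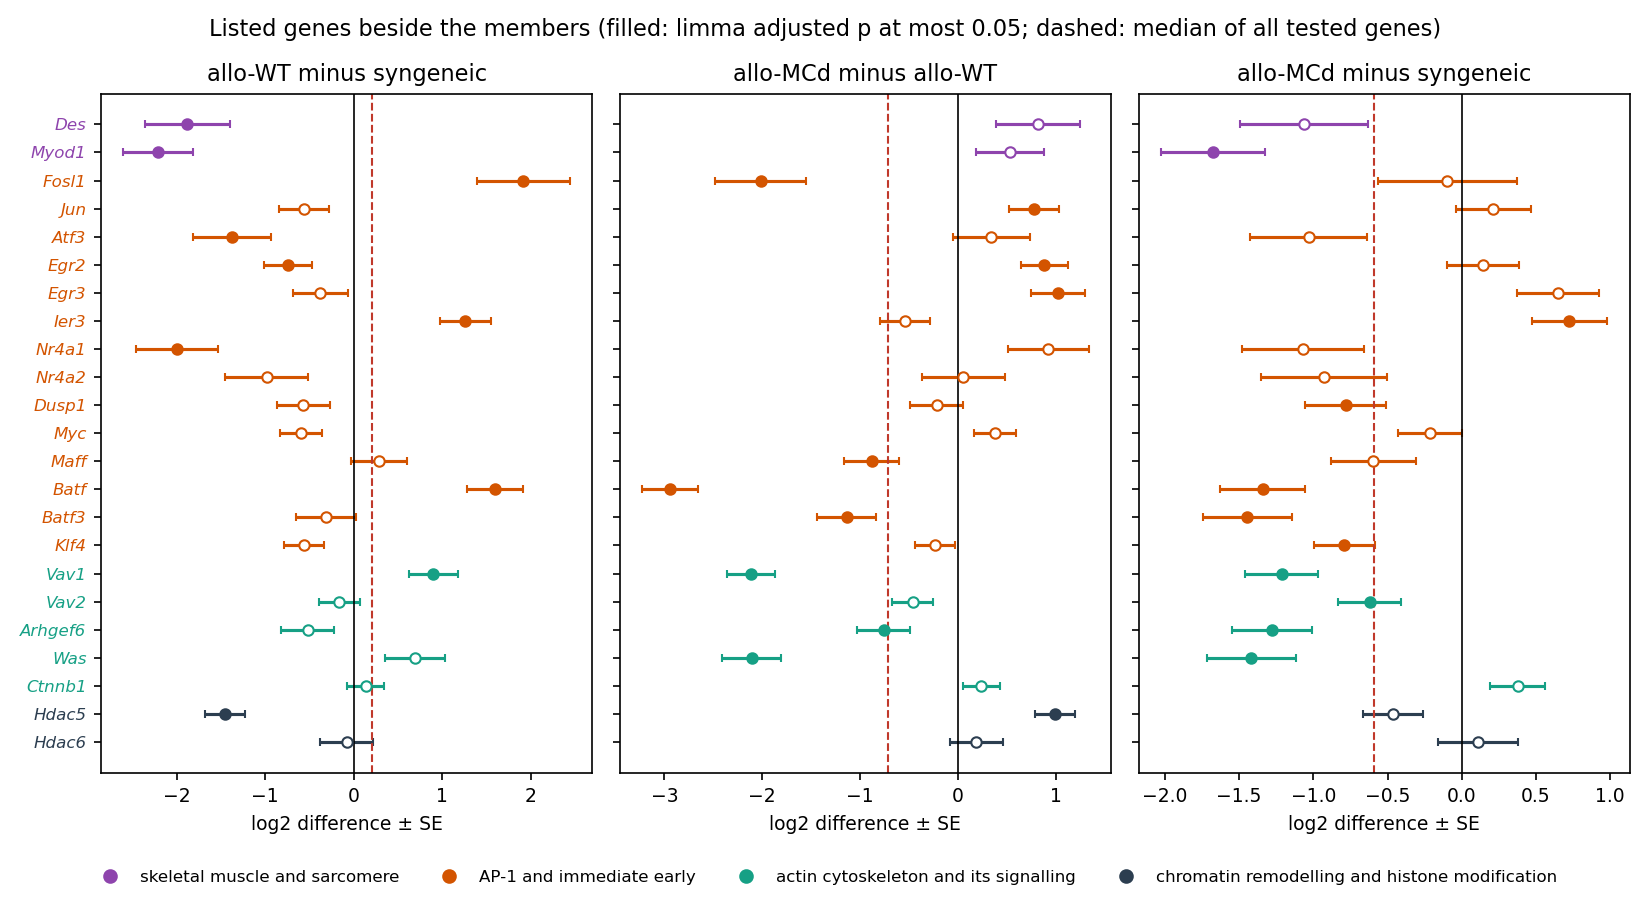
Difference between groups with its SE on the log2 scale for the 23 tested genes of the 4 lists in the 3 comparisons, coloured by list, with genes called by limma filled and the median of all tested genes dashed. Des, Myod1, Nr4a1, Atf3, Egr2 and Hdac5 are filled and below 0 in the first comparison, and Vav1, Was, Batf and Fosl1 lie lowest in allo-MCd minus allo-WT.

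Among the genes most similar to Myh4 over the 11 mice, group differences included, were Elovl6 (r = 0.95), an enzyme that lengthens fatty acids, and Mapk12 (0.94), a p38 kinase abundant in skeletal muscle. Yes1 (0.94), a Src family kinase, and Hdac5 (0.92) were also among the closest. Elovl6 and Mapk12 also had r = 0.77 and 0.74 with Myh4 in the deviations within groups, whereas Yes1 had 0.16. With median scaling Mapk12 ranked 1 and Elovl6 3 by r with Myh4 among all genes, whereas Hdac5 ranked 10 and Yes1 71. On the deposited scale, most similar to the mean of the 6 standardized members were Faf1 (0.96), Hdac5 (0.95), Eif4ebp2 (0.95), Map3k4 (0.95) and Gk5 (0.94), and with median scaling Hdac5 ranked 1, Gk5 4, Map3k4 5, Eif4ebp2 16 and Faf1 54. These correlations describe 11 mice that share 3 groups and 1 scaling, and carry no p.

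The nearest genes of the other members were listed after the values were seen, and some were shared. Mapk12 and Hdac5 were each among the 5 nearest of Myh4, Smarcd3 and 2900026A02Rik, and Faf1 was among those of Cttnbp2 and 2900026A02Rik. For Smarcd3 these were Mapk12 (r = 0.98) and Egf (0.97), a growth factor, and Cttnbp2 had Arhgef28 (0.97), an exchange factor, and Map3k4 (0.97), a kinase, among its closest. For Kalrn they were Alcam (0.98), an adhesion molecule, Col11a1 (0.96), a fibrillar collagen chain, and Cd44 (0.94), the hyaluronan receptor. Col11a1 lay below background in allo-WT mice 1 and 2 (22.8 against 37.5 and 14.3 against 15.7). Mapk12 did so in allo-WT mouse 1 (25.4 against 37.5). For 2900026A02Rik the nearest was Yap1 (0.97), a coactivator of the Hippo pathway, and for Fosb they were Btg2 (0.96), Cyr61 (0.95) and Nr4a1 (0.92), which are, like Fosb, induced rapidly by stimuli.

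**Figure D5:**
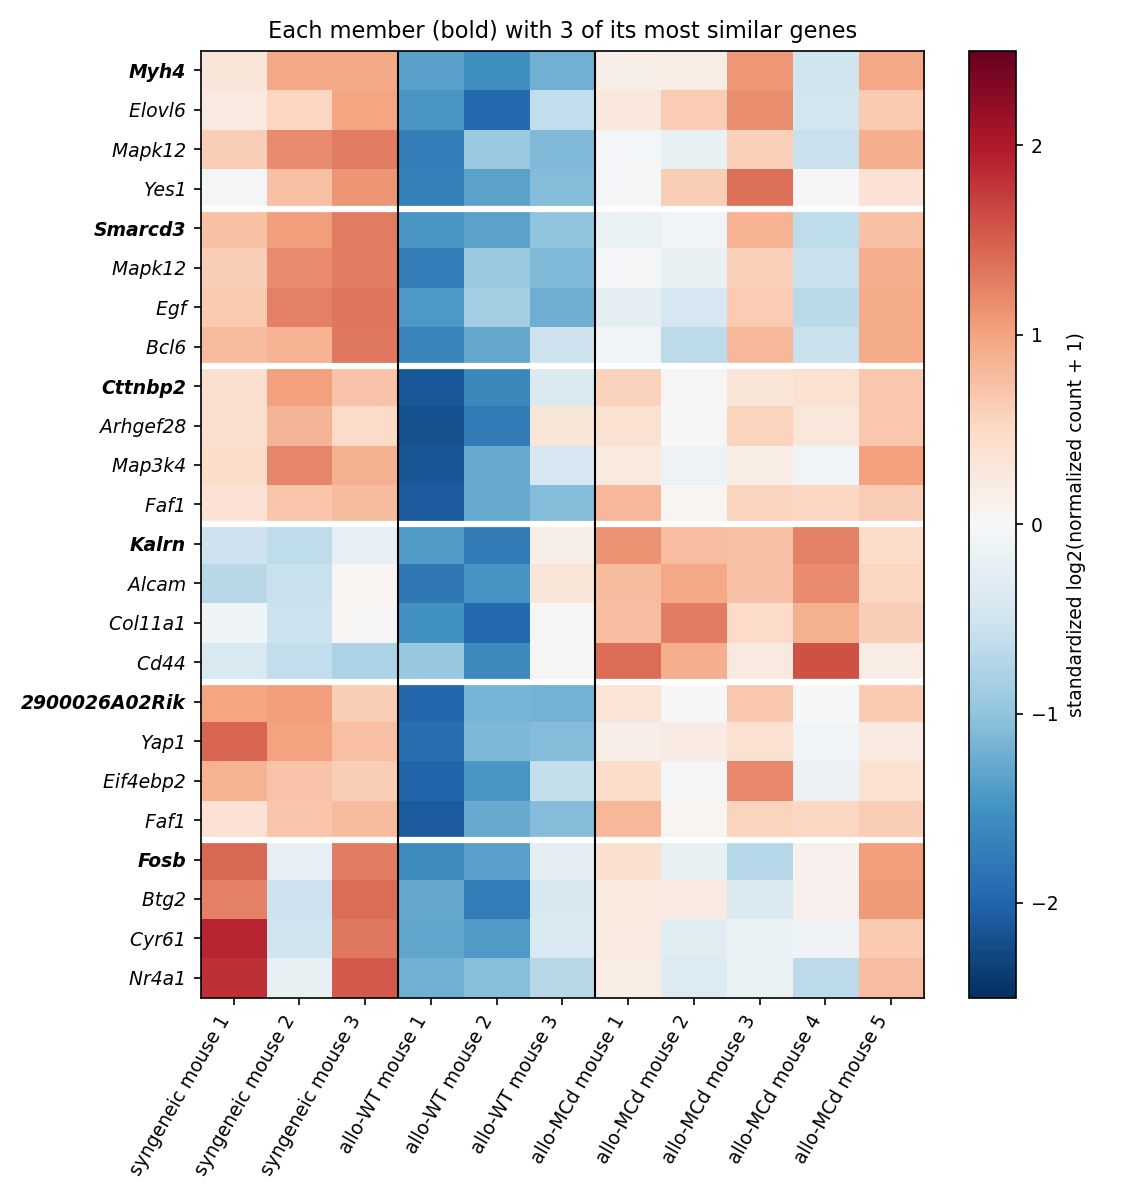
Log2(normalized count + 1) of each member (bold) and of 3 genes among those with the highest r to it over 11 mice, standardized within a gene, with red above and blue below that gene's mean and vertical lines between the groups. Kalrn, Alcam, Col11a1 and Cd44 are highest in the allo-MCd mice, whereas the genes around Fosb are highest in syngeneic mice 1 and 3.

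Lists of other cell types in skin were counted as well. The adipocyte list, with 6 of 16 genes on the panel, had 2 lower in allo-WT than in syngeneic mice, beside 14.9% of all genes (4 with median scaling, beside 27.3%). For allo-MCd minus allo-WT 1 of the 6 was higher on the deposited scale, beside 10.9% of all genes, and 5 with median scaling, beside 35.6%. Its summed normalized count was 36120 to 62945 in syngeneic, 25567 to 41111 in allo-WT and 26070 to 100640 in allo-MCd mice. The keratinocyte list had 2 of 23 genes on the panel, Cdh1 and Cldn1, whose sum was 4265 to 10407, 8188 to 8883 and 11195 to 12866. For allo-WT minus syngeneic 0 of these 2 were called, beside 14.9% lower and 28.3% higher of all genes, and for allo-MCd minus allo-WT 1 was called higher, beside 10.9%, or both with median scaling, beside 35.6%. For allo-MCd minus syngeneic 1 was called higher, beside 4.6%, or both with median scaling, beside 13.9%. The fibroblast list had 8 of 26, whose sum was 106310 to 213160, 22577 to 162030 and 44409 to 100910, and the endothelial list 6 of 19, whose sum was 1439 to 2158, 917 to 1062 and 604 to 1395. For allo-WT minus syngeneic 1 fibroblast gene was called lower and 1 higher, and 2 endothelial genes lower, where 14.9% of all genes were called lower and 28.3% higher. With median scaling 3 fibroblast genes were lower and 1 higher, and 2 endothelial genes lower, beside 27.3% and 24.3%. For allo-MCd minus allo-WT 2 genes of each of these lists were called lower, beside 50% of all genes, whereas with median scaling 0 were lower, and 1 fibroblast gene and 2 endothelial genes were called higher, beside 35.6% of all genes. For allo-MCd minus syngeneic 4 fibroblast genes were lower and 1 higher, and 2 endothelial genes lower, beside 36.9% and 4.6%. With median scaling 1 fibroblast gene was lower and 1 higher, and 0 endothelial genes were called, beside 13.5% and 13.9%. No listed nerve or melanocyte gene was on the panel (0 of 15).

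The summed counts of lists of infiltrating cells were highest in allo-WT skin. The neutrophil list (12 of 16 on the panel) summed to 853 to 1203 in syngeneic, 4711 to 137690 in allo-WT and 803 to 1361 in allo-MCd mice. The macrophage list (15 of 19) summed to 21066 to 25238, 36233 to 58599 and 8230 to 13324, and the T cell and NK cell list (4 of 22) to 536 to 560, 1659 to 2002 and 182 to 381. For allo-WT minus syngeneic 7 neutrophil genes, 8 macrophage genes and 3 T cell and NK cell genes were called higher, beside 28.3% of all genes. With median scaling 7, 7 and 3 were, beside 24.3%. In the comparison of allo-MCd with allo-WT mice, 10 of 10 tested neutrophil genes, 14 of 14 macrophage genes and 4 of 4 T cell and NK cell genes were called lower, where 50% of all genes were, and with median scaling 8, 11 and 3 were, beside 30.3% of all genes. For allo-MCd minus syngeneic 1 neutrophil gene, 12 macrophage genes and 2 T cell and NK cell genes were called lower, beside 36.9% of all genes, with list medians of -0.77, -1.30 and -0.87 beside -0.59 over all genes. With median scaling these counts were 0, 6 and 1, beside 13.5%. No marker on the panel was listed at 0 in any mouse. The part of these cell types in the values of the members was not tested between groups. Within groups, none of 48 relations of the 6 members with 8 list scores passed the threshold, with the lowest adjusted p at 0.356 and 4 at an unadjusted p under 0.05 by the exact permutation test. These 4 were Smarcd3 with the adipocyte list (r = 0.74), Cttnbp2 and 2900026A02Rik with the macrophage list (-0.72 and -0.73) and Fosb with the neutrophil list (-0.67). Since members and lists were chosen with earlier results of these mice known, the p of these relations are no independent test.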

How the data were processed

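From each mouse 100 ng of skin RNA was hybridized to the NanoString Myeloid Innate Immunity panel, in which each probe carries a colour barcode that is counted singly. The deposited signal is linear and holds these counts after the authors' normalization with nSolver, for which the version and housekeeping genes are not given in the sources used here. RNA was extracted with Trizol per the labels and Ribozol per the methods. Of 768 entries, 14 were control probes given as raw counts. Within 0.02, at least 99.87% of the gene values of each mouse were whole multiples of 1 factor per mouse (0.759 to 2.54), from which total counts were recovered. No 2 mice of a group agreed within sampling noise (chi-square per degree of freedom of 34.5 to 398).

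The members and gene lists were chosen with earlier results of these data known. After 20 listed housekeeping genes were set aside, groups were compared on log2(value + 1), which understates the change of low genes, in limma 3.58.1 (R 4.3.3) with an intensity trend and Benjamini-Hochberg adjustment over 696 genes. The fit and the permutation test were tested on simulated data. The permutation test planned for the correlations among the members is not reported, since the members were named with these values known. Named were the members, at most 4 called genes per list and comparison, and genes most similar to the members, of which some are not reported here. Correlations used Python 3.11.15, numpy 2.4.6, pandas 2.3.3 and scipy 1.17.1, and plots matplotlib 3.10.9. Alternatives were another pseudocount, other filters, scaling to medians, quantiles or housekeeping genes, no trend, only the groups compared, a block for the mouse number, the methods' test, leaving out single mice and, chosen after seeing the data, voom on the recovered counts in place of a count test.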

Additional observations from a re-analysis of the deposited data

How the results depend on the processing

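The number of genes called was 301 for allo-WT minus syngeneic, 424 for allo-MCd minus allo-WT and 289 for allo-MCd minus syngeneic. With the methods' test after Benjamini-Hochberg adjustment these were 193, 302 and 79, and without that adjustment 299, 354 and 211. With median scaling the third was 191. With single mice left out they lay between 224 and 327, 351 and 431, and 190 and 344, the lowest of the third without syngeneic mouse 1. With quantile normalization the calls were 161 higher and 209 lower, 255 and 205, and 94 and 99 in the 3 comparisons. With the mouse number as a block 290, 384 and 275 genes were called, and calls were lost by Fosb, Jun and Maff for allo-MCd minus allo-WT (limma adjusted p = 0.0855 for Jun and 0.068 for Maff), Egr2 for allo-WT minus syngeneic (0.0835) and Ier3 for allo-MCd minus syngeneic (0.127). The deviations of mice with the same number had r between -0.11 and 0.21 over 9 pairs of mice. Whether such mice share more than a number was not tested. For allo-MCd minus allo-WT, Maff reversed with quantile normalization (0.15) and Arhgef6 with median scaling (0.0839) and quantile normalization (0.0481), and for allo-MCd minus syngeneic Vav2 reversed with quantile normalization (0.0618), and the cause was not tested. The members' differences moved by more than the spread between mice in 6 cases with median scaling, 7 with quantile normalization and 2 without allo-WT mouse 3. There were 3 to 5 mice per group and no second panel. Near background were Cttnbp2 and Mapk12 in allo-WT mouse 1, Col11a1 in allo-WT mice 1 and 2, Fosl1 in syngeneic mouse 1, and Myod1 in allogeneic mice. Differences and correlations of low genes are therefore the least certain.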
